A study of Arabidopsis thaliana with 10 samples.

Results

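The receptor-like proteins of Arabidopsis thaliana are described here by the 52 protein-coding genes whose symbol is RLP followed by a number, out of 38303 genes listed in the deposited tables. The study sequenced messenger RNA from whole Col-0 seedlings aged 12 days, as 10 libraries in 5 groups of 2. In the hormone experiment, Col-0 seedlings received 100 nM brassinolide (BL), the most active brassinosteroid, or mock for 6 h. In the overexpression experiment, untreated seedlings expressed BEH2-YFP or BZR1-YFP from the constitutive 35S promoter, or were untreated Col-0. BEH2 and BZR1 are related transcription factors through which brassinosteroid signalling reaches its target genes, and the labels place both transgenes in the Columbia-0 background. Growth was in long days (16 h light, 8 h dark) at 23 °C. The number of independent transgenic lines and whether seedlings were pooled are not given in the labels, and the sample titles call the mock control non-treatment. Each group is represented by 1 FPKM value per gene (a fragment count scaled to transcript length and sequencing depth), which the authors pooled over both libraries. The values in single libraries, the overlap of groups and the depth are therefore unknown. A gene is called, and said to have risen or fallen, where the authors' deposited table gives q under 0.05. The number after ± is a standard error of the log2 ratio derived from the deposited test statistic.

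Receptor-like proteins stand in the plasma membrane with leucine-rich repeats outside the cell, 1 membrane helix and a short tail inside it. They have no kinase of their own. Those that sense microbes pair with the receptor kinase SOBIR1 and recruit the co-receptor BAK1 once the ligand is bound, and BAK1 is also the co-receptor of the brassinosteroid receptor BRI1. Other members act in development: CLV2 in meristems, TMM in stomatal patterning and RLP44 in linking the state of cell wall pectin to brassinosteroid signalling. CLV2 and TMM stand in the tables under those symbols and are not among the 52. The deposited annotation gives protein lengths between 218 residues (RLP25) and 1077 residues (RLP1).

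The family was expressed at low to moderate levels, with RLP4 at the top in all 5 groups. The median member stood at 3.13 FPKM with BL, 3.32 in mock, 2.66 in BEH2-YFP, 2.35 in BZR1-YFP and 2.14 in untreated Col-0. RLP4, a protein found at cell edges, had the highest level in each group, at 25.6 FPKM with BL, 24.4 in mock, 23.8 in BEH2-YFP, 24.2 in BZR1-YFP and 24.3 in untreated Col-0. RLP54 was among the top 3 in each, with 20.9, 20.7, 19.5, 16.0 and 17.8 FPKM in the same groups, and neither gene was called in any comparison. RLP19 exceeded RLP54 in both overexpression lines, with 22.9 FPKM in BEH2-YFP and 21.9 in BZR1-YFP. Of the 52 members 25 reached 5 FPKM in some group, 30 were at 1 FPKM or more in all 5, and 11 stayed under 1 FPKM throughout. RLP5 and RLP25 were listed at 0 in every group. The authors' Cuffdiff run tested 45 members with BL and 46 in each overexpression comparison, and 6 members (RLP5, RLP11, RLP15, RLP25, RLP28 and RLP46) were tested in none.

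**Figure D1:**
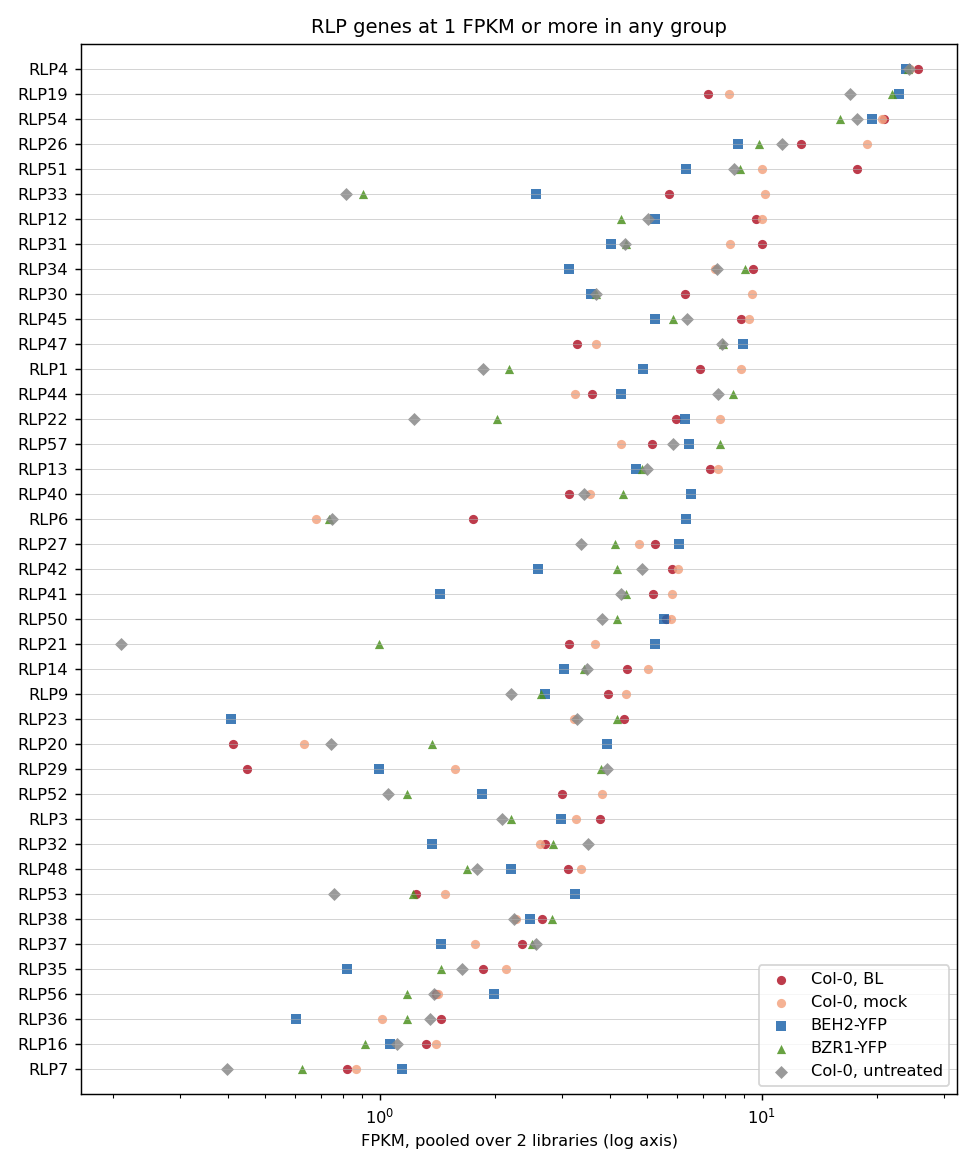
FPKM of each RLP gene that reached 1 FPKM in some group, on a log axis, with 1 point per group (pooled over 2 libraries). RLP4 lies at 23.8 to 25.6 FPKM in all 5 groups, while RLP21 spans 0.210 FPKM in untreated Col-0 to 5.27 FPKM in BEH2-YFP.

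Many members lie side by side on the chromosomes. In the TAIR10.1 annotation, 29 of the 52 fall into 11 tandem runs, counted as members with at most 5 protein-coding genes between them, and 23 stand alone. Chromosome 3 holds 16 members, chromosome 1 holds 14, chromosome 2 holds 11, chromosome 5 holds 6 and chromosome 4 holds 5. The largest run, RLP24 to RLP28 on chromosome 2, has 5 members within 20.6 kb. The coding sequence is a single exon in 35 members, and RLP1 has the most coding exons, 12. Tandem neighbours range from close copies to more distant relatives. Over aligned bases, gaps left out, the coding sequences of RLP40 and RLP41 are 91.5% identical and those of RLP32 and RLP33 79.5%. Those of RLP22 and RLP23 are 72.3% identical and those of RLP20 and RLP21 63.1%. In 9 members more than 10% of the 50-base windows of the exons also occur elsewhere in the genome, among them RLP42 (31.6%), RLP40 (26.9%), RLP34 (18.2%), RLP35 (14.9%), RLP41 (14.2%), RLP39 (13.4%) and RLP53 (12.9%). How reads of such windows were shared among copies was not given, so the values of these members are uncertain. Another annotated gene overlaps 19 members, on the opposite strand in 15 of them, and the use of strand in counting is not given either. Of the members called below, RLP22, RLP23, RLP26, RLP32, RLP34, RLP40, RLP41 and RLP53 are among these 19.

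BEH2-YFP against Col-0 asks which members change when BEH2 is in excess. Of 46 tested members 10 rose and 9 fell, which is 41.3% of them, while 11.8% of all 22729 tested genes were called (7.31% higher and 4.53% lower). The median absolute log2 ratio was 0.77 over the tested members and 0.26 over all tested genes, and the medians with sign were -0.03 and -0.007. Members of the family thus moved in both directions and by more than the typical gene, without a common shift. As a rule of size, 14 of the 19 changed at least 2-fold, but the share of all called genes that did so was not counted. Ratios of members with low levels depend on those levels: with 1 FPKM added to both groups, the log2 ratio in BEH2-YFP was 2.37 in place of 4.65 for RLP21 and -1.61 in place of -3.01 for RLP23. Over all 3 comparisons such an addition shrank 12 of 25 called log2 ratios by more than 1.5 times.

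Receptors with a known microbial ligand were found on both sides. RLP23, the receptor of the nlp20 peptide of bacteria, fungi and oomycetes (AT2G32680, chromosome 2, 13859769 to 13862614, minus strand), stood at 0.408 FPKM in BEH2-YFP, 4.17 in BZR1-YFP and 3.29 in untreated Col-0. Its fall of 8.07-fold in BEH2-YFP (log2 -3.01 ± 0.45) was the largest among called members. RLP32, which senses the bacterial translation initiation factor IF1 (AT3G05650, chromosome 3, 1644882 to 1648742, minus strand), had 1.37 FPKM in BEH2-YFP, 2.84 in BZR1-YFP and 3.51 in untreated Col-0 (BEH2-YFP over Col-0 log2 -1.36 ± 0.24). RLP42, the receptor of fungal endopolygalacturonases, had 2.60 FPKM in BEH2-YFP, 4.19 in BZR1-YFP and 4.85 in untreated Col-0 (log2 -0.90 ± 0.22 for BEH2-YFP). These 3 receptors were lower in BEH2-YFP, whereas RLP1 was higher. RLP1, which responds to the eMAX elicitor of Xanthomonas (AT1G07390, chromosome 1, 2269622 to 2274901, plus strand), rose 2.64-fold to 4.90 FPKM in BEH2-YFP, against 1.86 FPKM in untreated Col-0, with 2.18 FPKM in BZR1-YFP. RLP30, which mediates the response to the Sclerotinia elicitor SCFE1, stood at 3.58 FPKM in BEH2-YFP, 3.69 in BZR1-YFP and 3.69 in untreated Col-0 and was not called (log2 -0.04 ± 0.52 for BEH2-YFP).

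Of the members with a genetic role in resistance, RLP51, RLP3 and RLP52 were not called in BEH2-YFP. RLP51, known as SNC2 and a positive regulator of basal defence, stood at 6.34 FPKM in BEH2-YFP, 8.78 in BZR1-YFP and 8.47 in untreated Col-0 (log2 -0.42 ± 0.21 for BEH2-YFP). RLP3, a resistance gene against Fusarium oxysporum, had 2.98 FPKM in BEH2-YFP, 2.21 in BZR1-YFP and 2.09 in untreated Col-0. RLP52, which limits powdery mildew, had 1.85 FPKM in BEH2-YFP, 1.18 in BZR1-YFP and 1.05 in untreated Col-0. RLP55 was low throughout, between 0.294 FPKM in BEH2-YFP and 0.502 FPKM in BZR1-YFP. The ratios of RLP3 (log2 0.51 ± 0.28) and RLP52 (log2 0.82 ± 0.31) for BEH2-YFP lay on the higher side but did not pass the threshold in the authors' deposited table (q = 0.390 and q = 0.114).

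RLP44, the member tied to brassinosteroid signalling (AT3G49750, chromosome 3, 18450422 to 18451659, minus strand), fell 1.79-fold in BEH2-YFP. It had 4.29 FPKM in BEH2-YFP, 8.39 in BZR1-YFP and 7.68 in untreated Col-0, and the log2 ratio of BEH2-YFP to Col-0 was -0.84 ± 0.26, called at q = 0.0354 in the authors' deposited table. Of its partners, PSKR1, the phytosulfokine receptor, rose 2.02-fold to 16.2 FPKM in BEH2-YFP, against 8.01 FPKM in untreated Col-0. BRI1 stood at 28.3 FPKM in BEH2-YFP, 42.4 in BZR1-YFP and 39.3 in untreated Col-0, which was not called (q = 0.0917 for BEH2-YFP in the authors' deposited table).

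The largest rises were in members without a described ligand. RLP21 (AT2G25470, chromosome 2, 10838294 to 10842016, plus strand) rose 25.0-fold, with 5.27 FPKM in BEH2-YFP, 0.996 in BZR1-YFP and 0.210 in untreated Col-0 (log2 4.65 ± 0.43 for BEH2-YFP). RLP6 (AT1G45616, chromosome 1, 17183347 to 17186602, minus strand) rose 8.42-fold, to 6.32 FPKM in BEH2-YFP, against 0.736 in BZR1-YFP and 0.750 in untreated Col-0 (log2 3.07 ± 0.28). RLP20 rose 5.27-fold, to 3.94 FPKM in BEH2-YFP, against 0.747 FPKM in untreated Col-0. All 3 stood under the family median in untreated Col-0 and above it in BEH2-YFP. They are named for the ratio of those same values, which favours genes low in untreated Col-0. RLP22 had 6.30 FPKM in BEH2-YFP, 2.03 in BZR1-YFP and 1.23 in untreated Col-0, a rise of 5.12-fold in BEH2-YFP. RLP53 rose 4.27-fold, to 3.24 FPKM in BEH2-YFP, against 0.759 FPKM in untreated Col-0. RLP33 rose 3.15-fold and RLP7 2.87-fold, to 2.57 and 1.14 FPKM in BEH2-YFP, against 0.816 and 0.399 FPKM in untreated Col-0. The smallest called rises were those of RLP40 (1.91-fold, 6.53 FPKM in BEH2-YFP and 3.42 in untreated Col-0) and RLP27 (1.80-fold, 6.06 FPKM in BEH2-YFP and 3.36 in untreated Col-0).

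On the lower side, RLP29 (AT2G42800, chromosome 2, 17807906 to 17810265, minus strand), a short member of 462 residues, fell 3.96-fold, with 0.994 FPKM in BEH2-YFP, 3.79 in BZR1-YFP and 3.93 in untreated Col-0 (log2 -1.99 ± 0.29 for BEH2-YFP). RLP41 fell 2.98-fold, to 1.44 FPKM in BEH2-YFP, against 4.28 FPKM in untreated Col-0. RLP34 had 3.12 FPKM in BEH2-YFP, 9.03 in BZR1-YFP and 7.64 in untreated Col-0, a fall of 2.45-fold in BEH2-YFP. None of these 3 genes was called in BZR1-YFP. RLP36 and RLP35 fell 2.24-fold and 2.00-fold, to 0.603 and 0.820 FPKM in BEH2-YFP, against 1.35 and 1.64 FPKM in untreated Col-0. RLP39 showed the lowest ratio of all tested members, with 0.0394 FPKM in BEH2-YFP, 0.446 in BZR1-YFP and 0.645 in untreated Col-0, but its standard error was 1.63 on the log2 scale and it was not called. The other uncalled members with at least 5 FPKM in some group stood within 1.5-fold of Col-0 in BEH2-YFP, and RLP50 differed most among them (1.45-fold higher).

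These well expressed members were called in no overexpression comparison, and of those named next RLP26 was called with BL. RLP50 had 5.54 FPKM in BEH2-YFP, 4.19 in BZR1-YFP and 3.82 in untreated Col-0, and RLP19 had 17.0 FPKM in untreated Col-0. RLP26 stood at 8.66 FPKM in BEH2-YFP, 9.83 in BZR1-YFP and 11.3 in untreated Col-0. RLP47 had 8.94, 7.90 and 7.88 FPKM in the same groups, and RLP57 had 6.46, 7.76 and 5.87 FPKM. None of these levels moved past the threshold in either line. RLP45 had 5.25 FPKM in BEH2-YFP, 5.86 in BZR1-YFP and 6.36 in untreated Col-0. RLP12 had 5.24, 4.27 and 5.03 FPKM, RLP13 had 4.69, 4.85 and 5.01 FPKM, and RLP31 had 4.03, 4.40 and 4.38 FPKM. RLP14 was the lowest of the set, with 3.03, 3.43 and 3.49 FPKM. Of this set RLP19, RLP47 and RLP57 were lower in mock than in untreated Col-0 and the others were higher. In the hormone experiment RLP45 had 8.81 FPKM with BL and 9.27 in mock, RLP13 had 7.32 and 7.69 FPKM, and RLP14 had 4.44 and 5.03 FPKM, and these 3 were not called with BL.

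**Figure D2:**
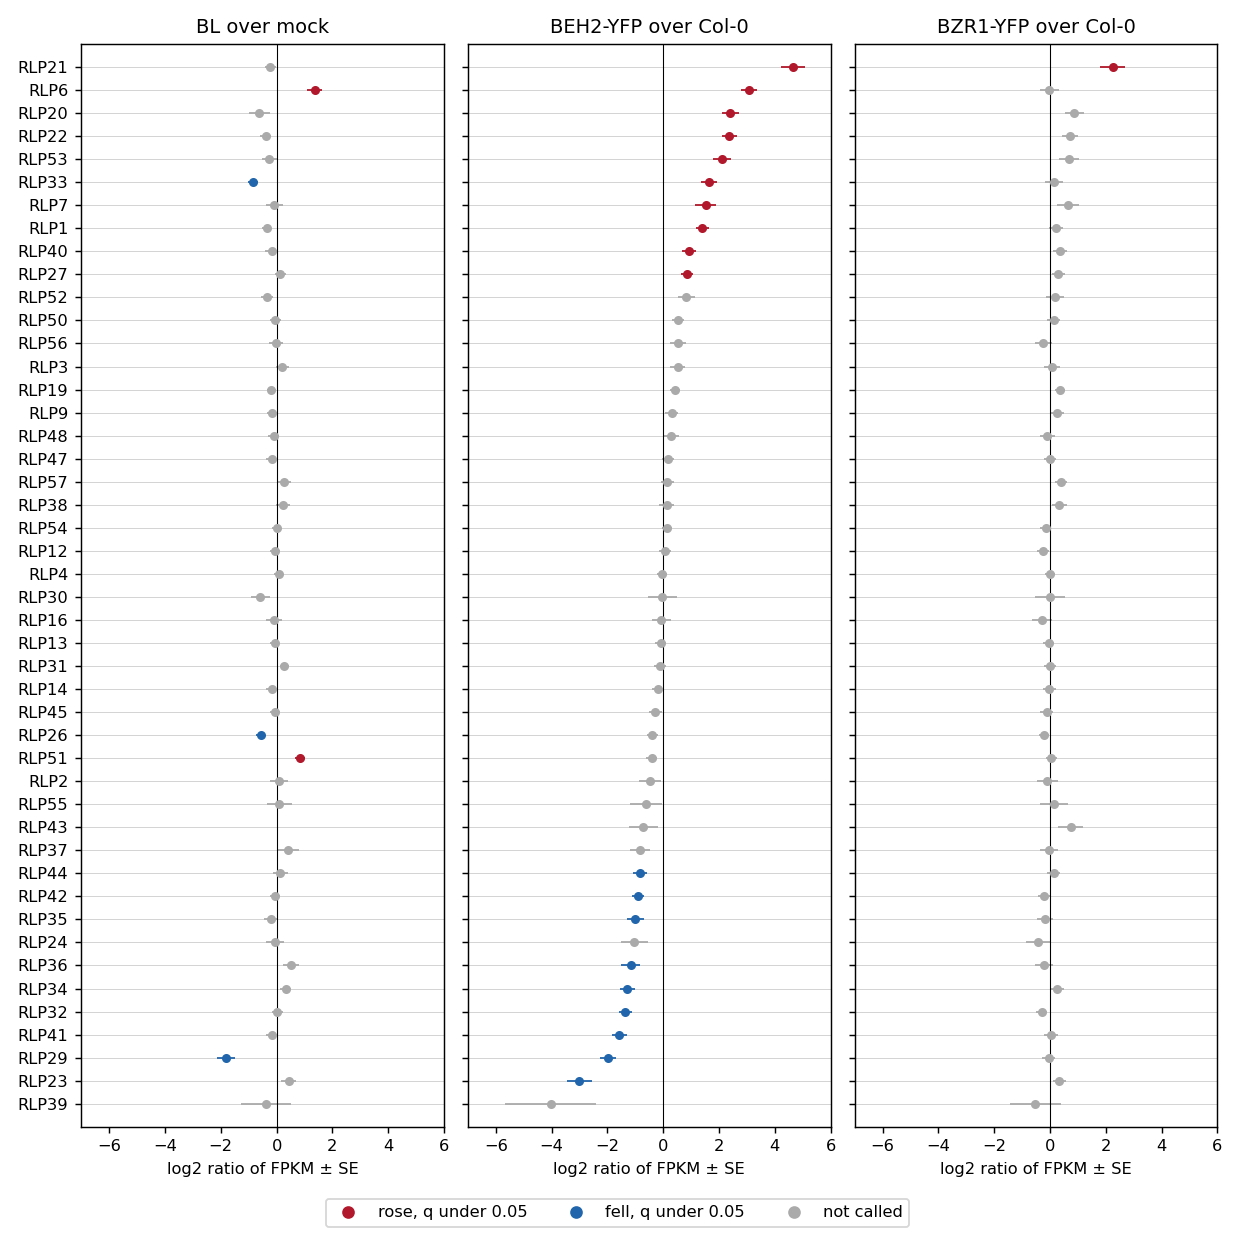
Log2 ratio of FPKM of the RLP genes tested in BEH2-YFP, with the derived standard error as a bar, for BL over mock, BEH2-YFP over Col-0 and BZR1-YFP over Col-0, ordered by the BEH2-YFP ratio. Of these genes 19 are called in BEH2-YFP, 5 with BL and 1 in BZR1-YFP.

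Some neighbouring genes of the same run moved in opposite directions in BEH2-YFP, and others moved together. Of the 4 runs with more than 1 called member, 3 held both a rise and a fall. The family as a whole had 10 rises and 9 falls, so mixed runs can arise among unrelated genes, and an excess was not tested. RLP22 and RLP23 lie on the minus strand of chromosome 2 with 1 gene between them, and their log2 ratios were 2.36 and -3.01. RLP32 and RLP33 stand 100 bases apart on the minus strand of chromosome 3, with log2 ratios of -1.36 and 1.65. RLP40 and RLP41 stand 85 bases apart, with log2 ratios of 0.93 and -1.58, and RLP42, further along the same run, had -0.90. RLP20 and RLP21, with 2 genes between them, rose together. Shared sequence differed among these pairs: 26.9% of the windows of RLP40 and 14.2% of those of RLP41 occur elsewhere, against 0% in RLP22, RLP32 and RLP33 and 0.393% in RLP23.

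**Figure D3:**
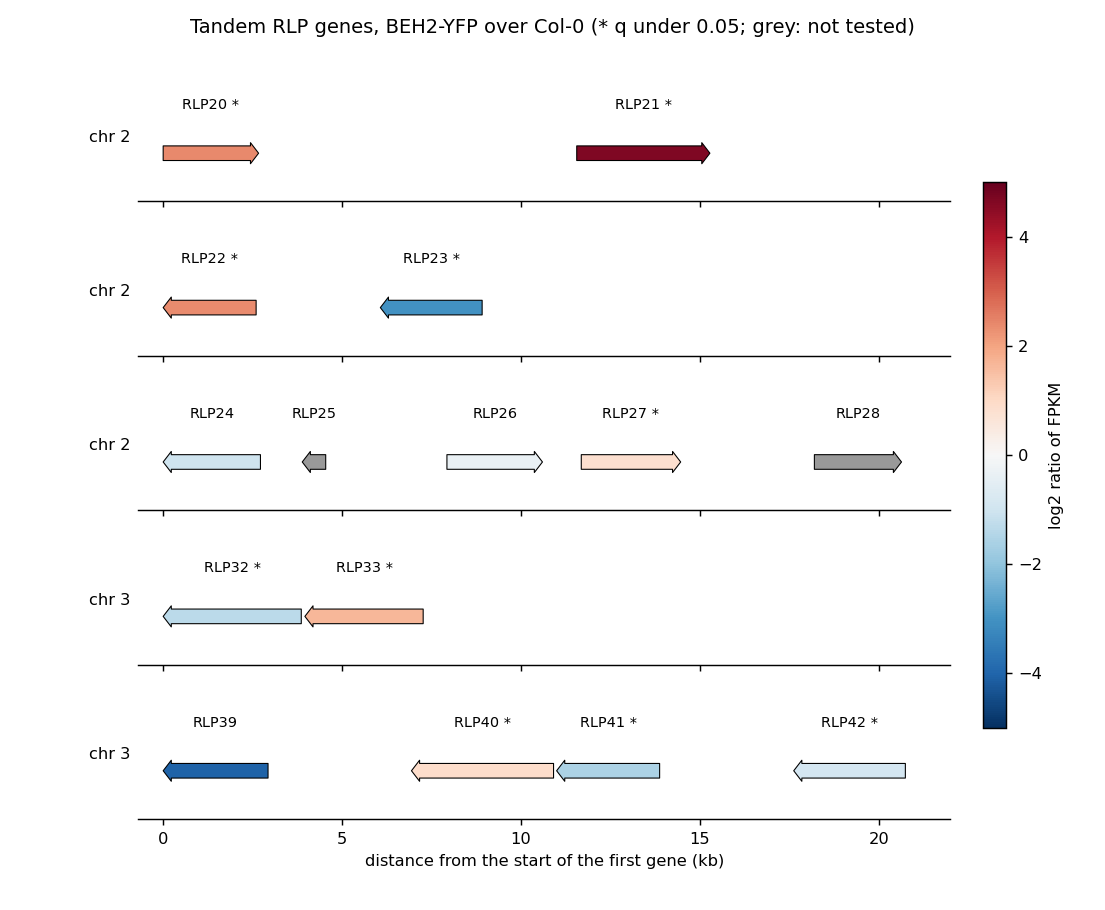
Tandem runs of RLP genes with at least 1 member called in BEH2-YFP, drawn to scale as distance from the first gene's start in kb, with arrows for the direction of transcription and colour for the log2 ratio of BEH2-YFP over Col-0. RLP22 and RLP23 (2.36 and -3.01), RLP32 and RLP33 (-1.36 and 1.65) and RLP40 and RLP41 (0.93 and -1.58) have opposite colours.

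BZR1-YFP against Col-0 asks the same of BZR1. Of 46 tested members 1 rose, RLP21, and 0 fell, which is 2.17% of them, while 1.62% of all 22605 tested genes were called (1.15% higher and 0.478% lower). RLP21 rose 4.74-fold (log2 2.24 ± 0.46), and with 1 FPKM added to both groups this log2 ratio was 0.72. Both overexpression comparisons share the same Col-0 value, 0.210 FPKM for this gene. At an unadjusted p-value under 0.05 in the authors' deposited table, 4 of 46 members were higher and 0 lower, beside 3.74% of all tested genes higher and 1.73% lower. The uncalled members ranged in log2 ratio from -0.53 (RLP39) to 0.87 (RLP20). The median absolute log2 ratio was 0.20 over the members and 0.14 over all tested genes.

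The difference between the effects of both lines was tested directly. The BEH2-YFP effect exceeded the BZR1-YFP effect, or fell short of it, in 11 of 46 members (23.9%), 6 higher and 5 lower in BEH2-YFP, by a two-sided normal test at an adjusted threshold of 0.05 over 22336 genes. Among all genes 3.59% were called (2.31% higher and 1.28% lower). RLP6 differed by 3.10 ± 0.44 on the log2 scale, RLP23 by -3.35 ± 0.51 and RLP29 by -1.93 ± 0.37. For RLP21, which rose in both lines, the difference was 2.40 ± 0.63 and was also called. Of the 19 members called in BEH2-YFP 11 passed this test and 8 did not. Those 8 were RLP44 (-0.97 ± 0.35), RLP42 (-0.69 ± 0.30), RLP53 (1.41 ± 0.48), RLP7 (0.87 ± 0.54), RLP27 (0.55 ± 0.31), RLP35 (-0.82 ± 0.42), RLP36 (-0.97 ± 0.47) and RLP40 (0.59 ± 0.36). For them the fall or rise seen in BEH2-YFP is not shown to differ between the lines. With standard errors taken from the deposited p-values, which have a floor, the count dropped to 3 of 46. The share of all genes called at that setting was not counted, so whether the family then exceeds it is not known.

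BL against mock asks which members respond to the hormone within 6 h. Of 45 tested members 2 rose and 3 fell, which is 11.1% of them, while 5.46% of all 22864 tested genes were called (3.01% higher and 2.45% lower). RLP51 (AT4G18760, chromosome 4, 10307810 to 10309591, minus strand) rose 1.78-fold over mock, to 17.8 FPKM with BL (log2 0.83 ± 0.18), the third highest level of the family with BL. RLP6 rose 2.57-fold, with 1.75 FPKM with BL and 0.679 in mock (log2 1.36 ± 0.28). RLP29 fell 3.51-fold, with 0.448 FPKM with BL and 1.57 in mock (log2 -1.81 ± 0.33). RLP6 and RLP29 were thus called in the same direction with BL and in BEH2-YFP. RLP33 was called in opposite directions: it fell 1.79-fold with BL, with 5.73 FPKM with BL and 10.2 in mock (log2 -0.84 ± 0.17), and rose in BEH2-YFP. RLP26 fell 1.49-fold, with 12.7 FPKM with BL and 18.9 in mock. RLP51 and RLP26 were not called in either overexpression line.

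Receptors with a known ligand were not called with BL. RLP23 had 4.35 FPKM with BL and 3.23 in mock (log2 0.43 ± 0.26), RLP42 had 5.81 and 6.02 FPKM, RLP32 had 2.70 and 2.63 FPKM, and RLP30 had 6.30 and 9.42 FPKM (log2 -0.58 ± 0.33). RLP1 stood at 6.89 FPKM with BL and 8.84 in mock (log2 -0.36 ± 0.17). RLP44 stood at 3.59 FPKM with BL and 3.25 in mock (log2 0.14 ± 0.27), while its partner BRI1 fell 1.81-fold, to 23.8 FPKM with BL, against 42.9 FPKM in mock. A test of the BEH2-YFP effect minus the BL effect, added after the data were seen, called 17 of 45 members (37.8%), 10 higher and 7 lower, against 9.06% of all genes (5.28% higher and 3.78% lower). Its calls included RLP33 (2.49 ± 0.33), RLP23 (-3.44 ± 0.52) and RLP51 (-1.25 ± 0.28). RLP29, which fell in both, did not pass it (-0.18 ± 0.45). Each effect has its own control, mock for BL and untreated Col-0 for BEH2-YFP, in separate experiments. Experiment and treatment therefore cannot be told apart in this difference.

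The 250 bases before the annotated start of 5 genes are shown because RLP6, RLP21, RLP29 and RLP33 were called in more than 1 comparison and RLP23 had the largest called fall. They were read from the TAIR10.1 genome at chr1:17186603-17186852, minus strand for RLP6, chr2:10838044-10838293, plus strand for RLP21, chr2:13862615-13862864, minus strand for RLP23, chr2:17810266-17810515, minus strand for RLP29 and chr3:1652150-1652399, minus strand for RLP33. Capitals mark matches, on either strand, to the E-box CANNTG, which includes the G-box CACGTG, to the brassinosteroid response elements CGTGTG and CGTGCG, and to the W-box forms TTGACC and TTGACT, which WRKY factors bind.
RLP6: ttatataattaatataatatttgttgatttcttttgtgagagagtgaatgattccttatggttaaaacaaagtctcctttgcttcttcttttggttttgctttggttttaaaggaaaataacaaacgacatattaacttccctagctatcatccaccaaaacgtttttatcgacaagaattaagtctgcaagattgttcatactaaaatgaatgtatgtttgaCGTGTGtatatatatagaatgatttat
RLP21: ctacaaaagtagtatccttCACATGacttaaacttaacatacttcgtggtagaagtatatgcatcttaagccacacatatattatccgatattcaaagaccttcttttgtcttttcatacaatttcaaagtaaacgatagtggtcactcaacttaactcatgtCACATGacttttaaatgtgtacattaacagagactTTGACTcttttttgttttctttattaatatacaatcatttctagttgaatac
RLP23: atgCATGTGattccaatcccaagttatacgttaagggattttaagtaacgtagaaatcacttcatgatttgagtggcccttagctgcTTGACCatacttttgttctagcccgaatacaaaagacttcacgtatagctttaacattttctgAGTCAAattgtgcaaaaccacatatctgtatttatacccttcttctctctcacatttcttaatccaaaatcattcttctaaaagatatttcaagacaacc
RLP29: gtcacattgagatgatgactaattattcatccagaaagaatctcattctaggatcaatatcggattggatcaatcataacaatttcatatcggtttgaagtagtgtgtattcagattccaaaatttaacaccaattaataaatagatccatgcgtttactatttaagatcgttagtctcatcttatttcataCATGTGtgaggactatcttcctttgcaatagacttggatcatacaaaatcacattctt
RLP33: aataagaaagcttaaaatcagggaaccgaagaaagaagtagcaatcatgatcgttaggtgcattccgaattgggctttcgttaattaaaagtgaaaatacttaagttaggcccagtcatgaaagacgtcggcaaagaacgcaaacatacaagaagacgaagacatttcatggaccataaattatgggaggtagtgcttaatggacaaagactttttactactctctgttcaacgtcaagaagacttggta
RLP6 holds CGTGTG 27 bases before its start, RLP21 holds CANNTG at 231 and 87 bases and TTGACT at 52 bases, and RLP29 holds CANNTG at 58 bases. RLP23 holds CANNTG at 247 bases, TTGACC at 163 bases and TTGACT, on the opposite strand, at 100 bases, whereas none of these letters stand in the window of RLP33. Across windows of the same length, CANNTG was found before 27 of 52 members (51.9%) and 55.2% of all 27561 protein-coding genes. CACGTG was found before 1 member (1.92%, against 6.46% of all genes), CGTGTG before 3 (5.77%, against 5.35%) and CGTGCG before 0, against 1.56% of all genes. The W-box form TTGACT was found before 24 members (46.2%), against 19.0% of all genes, and TTGACC before 9 (17.3%), against 12.2%. These windows are not all independent, since duplicated members can share them: RLP37 and RLP38 have nearly the same bases around TTGACT. Some windows, such as those of RLP30, RLP35 and RLP36, also hold exon bases of another gene. TTGACT stood before 4 of the 10 members that rose in BEH2-YFP and 4 of the 9 that fell. Such matches describe the letters in a window and not binding.

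Several members stood at different levels in the mock and the untreated Col-0 seedlings. Of 38 members at 1 FPKM or more in either, 7 were at least 2-fold higher in mock than in untreated Col-0 and 4 at least 2-fold lower. Among all 21120 genes at that level the shares were 8.75% and 7.52%. RLP21 stood at 3.66 FPKM in mock and 0.210 in untreated Col-0, RLP33 at 10.2 and 0.816, RLP22 at 7.78 and 1.23, and RLP1 at 8.84 and 1.86. In each of these 4 genes the BEH2-YFP level lay above untreated Col-0, and for RLP1, RLP22 and RLP33 it lay below mock. RLP52, RLP30 and RLP9 were also higher in mock, 3.64-fold, 2.55-fold and 2.00-fold. On the lower side, RLP29 had 1.57 FPKM in mock and 3.93 in untreated Col-0, RLP44 had 3.25 and 7.68, RLP19 had 8.22 and 17.0, and RLP47 had 3.69 and 7.88. By contrast RLP6 (0.679 FPKM in mock and 0.750 in untreated Col-0), RLP23 (3.23 and 3.29) and RLP34 (7.55 and 7.64) agreed within 1.11-fold between both controls. Leaf mesophyll, stomatal and floral markers also stood apart in sum between both controls, whereas the sum of root markers differed little. The leaf mesophyll markers summed to 12060 FPKM in mock and 26633 in untreated Col-0. CAB3 differed most among them, at 294 and 5780 FPKM, with CAB1 at 5233 and 11773 FPKM and RBCS1A at 6534 and 9080 FPKM. The stomatal markers summed to 58.2 FPKM in mock and 30.5 in untreated Col-0, the floral markers to 2.85 and 8.66 FPKM, and the root markers to 69.4 and 67.4 FPKM. Single markers did not all follow their sums. EPF1 of the stomatal list had 1.46 FPKM in mock and 2.19 in untreated Col-0, and BASL had 1.96 and 1.98 FPKM. The other stomatal markers were higher in mock. CASP5 of the root list had 1.83 FPKM in mock and 0.627 in untreated Col-0. The part of these markers in the differences of RLP genes was not tested. The experiments come from separate Cuffdiff runs, so these levels are a description with no test, and experiment and treatment cannot be told apart.

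**Figure D4:**
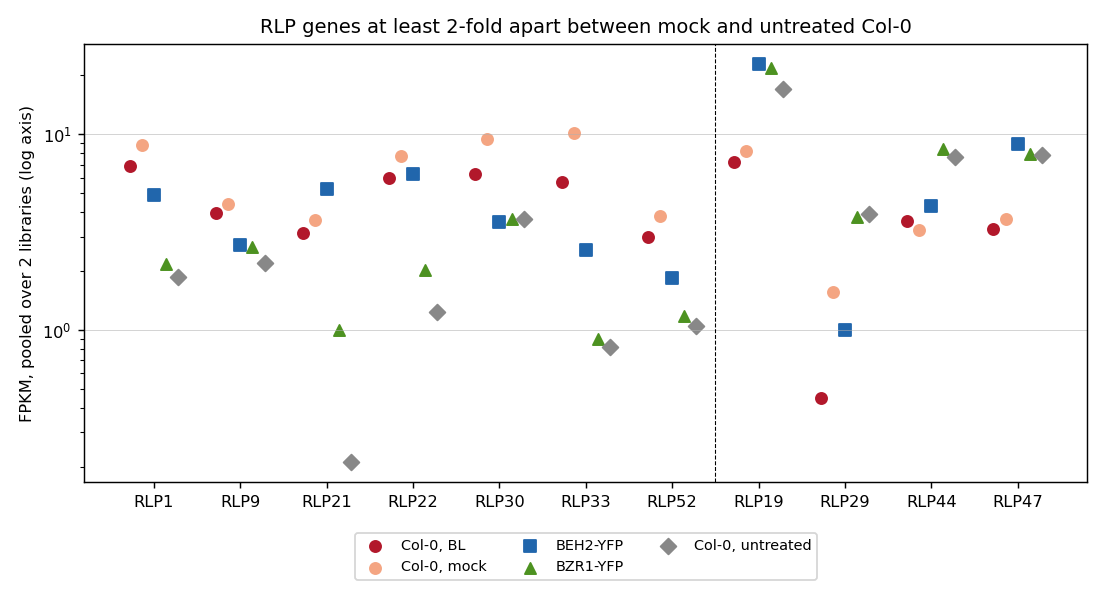
FPKM on a log axis, pooled over 2 libraries, of the 11 RLP genes that differ at least 2-fold between mock and untreated Col-0, in all 5 groups; genes left of the dashed line are higher in mock. RLP33 stands at 10.2 FPKM in mock and 0.816 FPKM in untreated Col-0, with BEH2-YFP between them at 2.57 FPKM.

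Genes that work with receptor-like proteins were followed through lists of their partners, whose counts in BEH2-YFP stand beside 7.31% of all tested genes called higher and 4.53% called lower. A single call in lists of this size is given as a count and not as a property of the list. Of 9 co-receptor kinases and their BIR regulators 1 rose in BEH2-YFP and 0 fell (median log2 0.23): BIR1, a negative regulator of SOBIR1-dependent cell death, rose 1.67-fold to 26.7 FPKM, against 16.0 FPKM in untreated Col-0. SOBIR1 stood at 33.1 FPKM in BEH2-YFP, 35.1 in BZR1-YFP and 29.0 in untreated Col-0, and BAK1 at 21.6, 21.8 and 21.4 FPKM in the same groups, and neither was called. Of 10 genes of the downstream immune node 4 rose and 0 fell (median log2 0.54). ADR1, a helper receptor, rose 3.90-fold to 18.7 FPKM in BEH2-YFP, against 4.80 FPKM in untreated Col-0, and ADR1-L1 rose 1.48-fold. The cytoplasmic kinases BIK1 and PBL31 rose 1.78-fold and 1.83-fold. EDS1 (10.5 FPKM in BEH2-YFP and 14.6 in untreated Col-0) and PAD4 (log2 -0.45 ± 0.19) lay on the lower side and SAG101 (9.47 FPKM in BEH2-YFP and 6.12 in untreated Col-0) on the higher side. None of these 3 lipase-like proteins was called.

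Of 6 immune receptors of the kinase type 1 rose in BEH2-YFP and 0 fell (median log2 0.42), the flagellin receptor FLS2, with 33.1 FPKM in BEH2-YFP, 9.60 in BZR1-YFP and 7.85 in untreated Col-0. With BL, EFR, the receptor of bacterial elongation factor Tu, fell 2.94-fold, with 1.68 FPKM with BL and 4.93 in mock, and it was the only call among these 6. Of 6 CLAVATA receptors 1 rose (BAM3, 1.51-fold) and 1 fell (CLV1, 1.58-fold) in BEH2-YFP. Of 6 ERECTA receptors and EPF ligands 1 fell, ER itself (1.51-fold). CLV2 and TMM stayed uncalled in all 3 comparisons, with TMM at 16.3 FPKM with BL, 13.2 in mock, 10.3 in BEH2-YFP, 7.27 in BZR1-YFP and 7.99 in untreated Col-0. None of these lists had a member called in BZR1-YFP, and with BL the only calls among them were EFR and BRI1. Among all tested genes 1.62% were called in BZR1-YFP and 5.46% with BL. At such shares lists of this size hold few calls, so these counts do not set the partners apart from other genes.

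Markers of leaf and root were detected in all groups, which the labels call whole plant. Among all tested genes 7.31% were called higher and 4.53% lower in BEH2-YFP, 0.478% lower in BZR1-YFP and 3.01% higher with BL. Of 7 root markers 1 fell in BEH2-YFP (COBL9, 2.02-fold), and their summed level was 53.5 FPKM in BEH2-YFP, 65.0 in BZR1-YFP and 67.4 in untreated Col-0. Of 3 leaf mesophyll markers 0 were called, with sums of 21613, 25689 and 26633 FPKM in the same groups. Their standard errors in BEH2-YFP were wide, at 0.70 (RBCS1A), 0.50 (CAB3) and 1.72 (CAB1) on the log2 scale. The median over all tested genes was 0.23, so the lack of a call does not show equal leaf marker levels. Of 7 stomatal markers 1 rose (MYB60, 1.64-fold), with sums of 40.7, 33.5 and 30.5 FPKM. Of 3 floral markers 2 fell in BEH2-YFP (AP1 and PI) and 1 in BZR1-YFP (AP1), with sums of 1.74, 5.15 and 8.66 FPKM. Of 2 shoot meristem markers 1 was tested and 0 were called. With BL, CASP5 of the root list rose, and the sum of that list was 82.5 FPKM with BL and 69.4 in mock. The part of tissue makeup in the changes of RLP genes was not tested, and in whole seedlings fewer cells of a type and less RNA per cell cannot be told apart.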

How the data were processed

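Reads were aligned and compared with TopHat2 2.0.13 and Cuffdiff 2.2.0 on TAIR10, per the submitters' processing notes; how reads were trimmed, and whether strand was used in counting, is not stated there. Per the file headers, the authors deposited FPKM of each group, pooled over 2 libraries, the log2 fold change without a pseudocount, the test statistic (a score of their Cuffdiff run), and the p-value and q-value. The deposited p-values have a floor. The annotation columns name the assembly TAIR10.1, and all 38085 loci found in the RefSeq annotation of that assembly lay within the deposited loci.

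Calls rest on the authors' test at q under 0.05, with no filter on low values. Ratios were recomputed from the FPKM values. A standard error was derived as the absolute log2 ratio over the absolute statistic times k, where k is the factor between that statistic and the deviate implied by the p-value (the median for p from 0.0002 to 0.9 was 1.43 for BL, 1.42 for BEH2-YFP, 1.43 for BZR1-YFP). Effects of 2 comparisons were set against each other by dividing their difference by its combined standard error (normal, two-sided), with Benjamini-Hochberg adjustment over all genes; the script was tested on simulated data. The test of BEH2-YFP against BL was added after seeing the data. In BEH2-YFP against BZR1-YFP, the Col-0 value that both effects share enters both errors. Named members were those called in any test, those at 5 FPKM or more in some group, and 13 with known or often studied roles. The members, gene lists and markers were chosen with earlier results of these data known. Labels call the replicates biological, but both libraries were pooled before deposit, so the tests measure only the spread Cuffdiff saw among them. Promoter windows and shared 50-base windows were computed from the genome. Software was SciPy 1.17.1, pandas 2.3.3 and numpy 2.4.6 under Python 3.11.15, with matplotlib 3.10.9 for plots.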

Additional observations from a re-analysis of the deposited data

Results flagged for a closer look

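The effects of BEH2-YFP and BZR1-YFP against the same Col-0 value differed in 11 members by the normal test of the difference, given here as the log2 ratio in BEH2-YFP less that in BZR1-YFP. It was higher in BEH2-YFP for RLP6 (3.10), RLP21 (2.40), RLP22 (1.64), RLP20 (1.53), RLP33 (1.51) and RLP1 (1.17). It was lower in BEH2-YFP for RLP23 (-3.35), RLP29 (-1.93), RLP41 (-1.62), RLP34 (-1.53) and RLP32 (-1.06). Among all genes 3.59% differed by this test. RLP33 also differed between BEH2-YFP and BL, with opposite calls and a difference of 2.49 (BEH2-YFP effect minus BL effect). Its level was 2.57 FPKM in BEH2-YFP and 0.816 in untreated Col-0, and 5.73 FPKM with BL and 10.2 in mock. These effects come from separate experiments with different controls.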

How the results depend on the processing

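No paired analysis was possible because the deposited tables hold 1 pooled value per group, and for the same reason no replicate could be left out. In BEH2-YFP the count of 19 called members lay between 14 (at least 2-fold) and 20 (pseudogenes added) under the 7 alternatives. In each comparison centring left the calls and their directions as they were. It shifted the ratios without recomputing the calls, so only a direction could change. The medians it subtracted lay between -0.007 and 0.004, while the called ratio nearest to no change was -0.57 (RLP26 with BL). Centring therefore does not test the stability of the calls. Adding CLV2 and TMM or the pseudogenes could only raise a count, so these settings do not test its stability. With BL the count dropped to 2, 1 rise and 1 fall, when at least 2-fold was also asked, and was 5 at every other setting. In BZR1-YFP it dropped to 0 when genes under 1 FPKM in both groups were left out, since RLP21 stood at 0.996 FPKM, and rose to 2, with 1 fall, when the pseudogenes were added. At settings that changed the rule for calling, the share of all genes called was not counted. Whether the family then exceeds that share is not known. The difference between the lines called 3 members with standard errors from the deposited p-values, whose floor widens the errors of the strongest genes. No share of all genes was counted for that setting. Of 108 log2 ratios of named members, 21 moved by more than their standard error with a pseudocount of 1 and 1 with 0.1. With centring 0 moved, but the medians subtracted were too small to move any of them that far. No called ratio could change sign, since a pseudocount keeps the sign and centring shifts too little. Among the 25 called ratios 17 moved with a pseudocount of 1 and 8 did not. In BEH2-YFP the log2 ratio was then 2.37 for RLP21, 2.06 for RLP6 and -1.61 for RLP23, and with BL it was 0.71 for RLP6 and -0.83 for RLP29. Low members are the least certain, since their depth is unknown.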

Other observations

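The 2 RLP symbols annotated as transcribed pseudogenes were also expressed. RLP49 (AT4G13900) had 9.81 FPKM in BEH2-YFP, 6.78 in BZR1-YFP and 5.92 in untreated Col-0, and 1.73 FPKM with BL and 1.98 in mock. It rose 1.66-fold in BEH2-YFP (log2 0.73 ± 0.20). RLP18 (AT2G15040) had 2.68 FPKM in BEH2-YFP, 1.77 in BZR1-YFP and 4.01 in untreated Col-0, and 4.10 FPKM with BL and 3.66 in mock. It fell 2.26-fold in BZR1-YFP (log2 -1.18 ± 0.28) and was not called in BEH2-YFP (log2 -0.58 ± 0.26).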
